A study of Mus musculus with 12 samples.

Results

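The genes described here are 10 genes of glycolysis in activated lymphocytes and myeloid cells: the glucose transporter gene Slc2a1, the enzyme genes Hk2, Gpi1, Pfkp, Aldoa, Tpi1, Gapdh, Pgk1 and Eno1, and the lactate dehydrogenase gene Ldha. They were chosen by symbol, and all 10 were found among the 24319 entries of the deposited table. RNA had been sequenced from CD45-positive cells, the immune cells, of C57BL/6 mouse livers after magnetic bead selection. Every mouse of every group had received plasmids of human c-Myc and N-ras by hydrodynamic transfection on day 0, a rapid high-volume injection that delivers DNA mainly to hepatocytes, so no group was free of the oncogenes. Combination mice were given polyIC, a mimic of viral double-stranded RNA, at 4 mg/kg on days 14, 16, 18, 20 and 22, and 200 µg of PD-L1 antibody on days 17, 19 and 21. The polyIC group had polyIC with IgG in place of the antibody, the antiPDL1 group had the antibody with PBS in place of polyIC, and control mice had PBS and IgG, all on the same days. Livers were taken on day 24 by the treatment protocol, whereas the time point label reads day 22. There were 3 libraries per group, numbered 0, 1 and 2. The labels do not give the age of the mice or say whether the libraries of a group came from separate mice, so each p-value measures the spread between these libraries, which may be technical.

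Glycolysis splits glucose into pyruvate in the cytosol and yields ATP without oxygen. T cells and macrophages raise their glucose uptake and lactate output when activated, and most of the enzymes exist as several paralogs of which hepatocytes use their own set. Many of the genes carry sites for the hypoxia factor HIF-1 and for Myc.

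Levels are in FPKM, fragment counts divided by transcript length and library size. They can be set side by side between genes, except where much of a transcript has near-identical copies in other genes. The FPKM of a library summed to between 476111 and 677535, and depth is known only in relative terms, from 0.459 to 1 of the deepest library. Differences were tested with limma on log2(FPKM + 1) in 1 fit over the 12 libraries. A gene was called when its p, adjusted by the Benjamini-Hochberg method over 11991 tested genes, was under 0.05, and each difference is given on the log2(FPKM + 1) scale with its standard error (SE). Ptprc, which encodes CD45, measured 381, 480 and 487 FPKM in combination libraries, 379, 416 and 371 in polyIC, 340, 327 and 268 in antiPDL1 and 206, 251 and 261 in control. Hepatocyte RNA was present as well: Alb measured 77.4 to 144 FPKM in combination, 640 to 978 in polyIC, 124 to 1000.3 in antiPDL1 and 495 to 1601 in control libraries. Across genes, antiPDL1 replicate 2 was closer to the controls (r = 0.950) than to the other antiPDL1 libraries (0.927), and control replicate 2 was closer to polyIC (0.932) than to the other controls (0.921). AntiPDL1 replicate 0 was closer to combination (0.960) and polyIC (0.942) than to the other antiPDL1 libraries (0.940). Counts without these libraries are given where they differ.

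With the combination, 5 of the 10 genes rose against control and 0 fell: Pfkp, Ldha, Eno1, Gapdh and Slc2a1. Of all genes tested, 13.1% rose and 16.3% fell in that comparison, 29.4% together. An unadjusted p under 0.05 was found for 7 of the 10, against 42.6% of all genes. The median log2 difference of the 10 genes was 0.81, against 0.05 over all genes tested. In 8 of the 10, every combination library lay above every control library, which was so for 25.6% of all genes. Hk2 and Aldoa were the genes whose groups overlapped, and Hk2 alone had a difference below 0. The values of Gapdh and Eno1 are less certain, because much of their transcripts has near-identical copies in other genes. In bulk RNA such as this, fewer cells of a type and less RNA per cell cannot be told apart. The count of 5 depended on single libraries. It was 1 (Pfkp) without combination replicate 1, 2 without control replicate 0, 3 without combination replicate 0 and 8 without antiPDL1 replicate 2, where 5.17%, 5.8%, 10% and 19.9% of all genes rose. It was 4 without control replicate 2, where 13.9% of all genes rose, and 7 with control replicate 2 and antiPDL1 replicate 2 both left out, where 20.9% did. It was 3 when all genes were tested without the filter, where 8.9% rose. With array quality weights, which let libraries count unequally, 9 rose and Hk2 fell, where 31.1% of all genes rose.

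**Figure D1:**
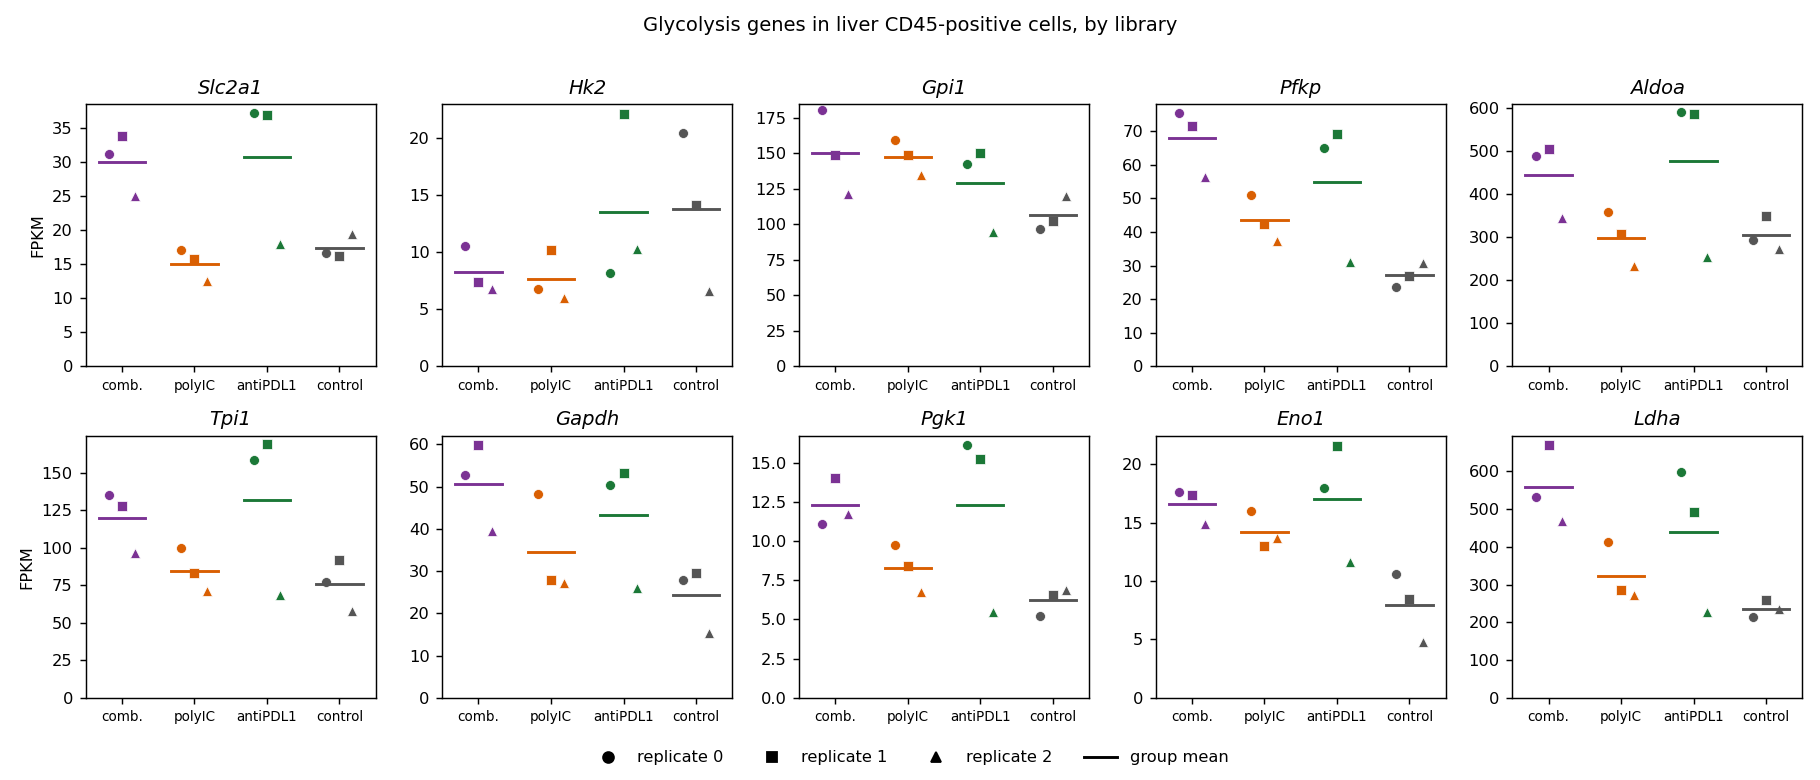
FPKM of each glycolysis gene in every library. Points are libraries, marked by replicate number, lines are group means, and the groups run combination, polyIC, antiPDL1 and control. Pfkp and Ldha lie higher in all 3 combination libraries than in any control, while antiPDL1 replicate 2 sits far below the other antiPDL1 libraries for most genes.

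Promoter sequence is shown for the genes that open and close the pathway and for the gene with the largest difference, because HIF-1 and Myc sites have been described in glycolytic promoters. The windows are the 250 bases before the start, from RefSeq on GRCm38.p6, a later build than the mm9 of the expression table, and are written 5′ to 3′ on the strand of the gene. Capitals mark ACGTG or GCGTG, the core of the hypoxia response element, and CACGTG, the E-box bound by Myc, on either strand. A CACGTG also holds ACGTG on each strand. The windows are Slc2a1 at chr4:119108495-119108744 (plus strand), Hk2 at chr6:82774455-82774704 (minus strand), Pfkp at chr13:6648772-6649021 (minus strand) and, of the 2 windows of Ldha, the one at chr7:46845554-46845803 (plus strand).
Slc2a1: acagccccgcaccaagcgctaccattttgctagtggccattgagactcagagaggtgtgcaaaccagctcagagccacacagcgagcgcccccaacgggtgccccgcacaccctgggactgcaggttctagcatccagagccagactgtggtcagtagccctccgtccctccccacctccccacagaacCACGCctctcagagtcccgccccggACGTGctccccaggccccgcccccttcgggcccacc
Hk2: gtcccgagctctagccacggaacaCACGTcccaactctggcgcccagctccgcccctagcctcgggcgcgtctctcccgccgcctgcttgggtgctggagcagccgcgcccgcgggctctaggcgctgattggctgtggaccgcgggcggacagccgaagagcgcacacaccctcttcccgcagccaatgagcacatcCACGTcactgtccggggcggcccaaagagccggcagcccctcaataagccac
Pfkp: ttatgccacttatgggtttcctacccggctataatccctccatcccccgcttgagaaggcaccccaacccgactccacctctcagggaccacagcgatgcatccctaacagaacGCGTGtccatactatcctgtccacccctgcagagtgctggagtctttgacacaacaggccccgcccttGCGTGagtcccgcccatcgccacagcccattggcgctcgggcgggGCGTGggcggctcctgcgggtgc
Ldha: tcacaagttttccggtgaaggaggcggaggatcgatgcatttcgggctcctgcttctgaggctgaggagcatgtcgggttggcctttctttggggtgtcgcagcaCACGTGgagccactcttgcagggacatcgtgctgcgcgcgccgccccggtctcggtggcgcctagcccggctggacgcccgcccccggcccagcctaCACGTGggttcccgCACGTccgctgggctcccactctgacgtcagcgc

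Slc2a1 and Hk2 each held 2 matches to ACGTG or GCGTG, Pfkp held 3 and the Ldha window shown held 5, the most of all windows of the 10 genes. The other Ldha window, at chr7:46846832-46847081, held 1 match to ACGTG or GCGTG and 0 to CACGTG. Each of the 2 CACGTG in the Ldha window shown was counted on both strands, so 5 is not the number of separate stretches. The 10 genes matched 15 windows. Some of the Aldoa windows overlap each other, as do some of the Eno1 windows, so 1 match can be counted in more than 1 window. ACGTG or GCGTG was found in 12 of these windows and in 8 of the 10 genes, Gpi1 and Tpi1 having none. It was found in 38.6% of all 32851 promoter windows and in 68.7% of the 8356 windows with at least 16 CG pairs, the median of the glycolysis windows. CACGTG stood in 1 of the 15 windows, or 6.67%, against 6.02% of all and 9.98% of those with at least 16 CG pairs. A match describes the letters of the window and is not a binding site.

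Ldha and Aldoa had the highest values of the 10 genes, with medians over the 12 libraries of 349.0 and 347 FPKM. Gpi1 followed at 138, Tpi1 at 94.1, Pfkp at 46.5, Gapdh at 34.4, Slc2a1 at 18.7, Eno1 at 14.3, Hk2 at 9.18 and Pgk1 at 9.10 FPKM. Ldha ran from 213 to 671 and Aldoa from 234 to 592, and each held rank 1 or 2 in every library. The range of Aldoa lay above that of Gpi1, from 94.9 to 180.0, and the other neighbours in this order overlapped in range. Ldha and Aldoa together made up 62.0% to 71.0% of the summed FPKM of the 10 genes. Part of some transcripts has near-identical copies elsewhere. Of the 50-base stretches of their longest transcripts (GENCODE M21), 82.5% for Gapdh, 72.2% for Eno1 and 68.0% for Pgk1 also occur in other annotated genes. For Gpi1 the share was 19.3%, for Ldha 16.6%, for Aldoa 13.5% and for Tpi1 7.51%, and for Slc2a1, Hk2 and Pfkp it was 0. How the authors assigned such reads is not given, so the values of Gapdh, Eno1 and Pgk1 are uncertain. In that annotation 7 of the 10 genes also overlap a gene on the other strand, for example Pfkp with Pitrm1, and whether strand was used in counting is not given.

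**Figure D2:**
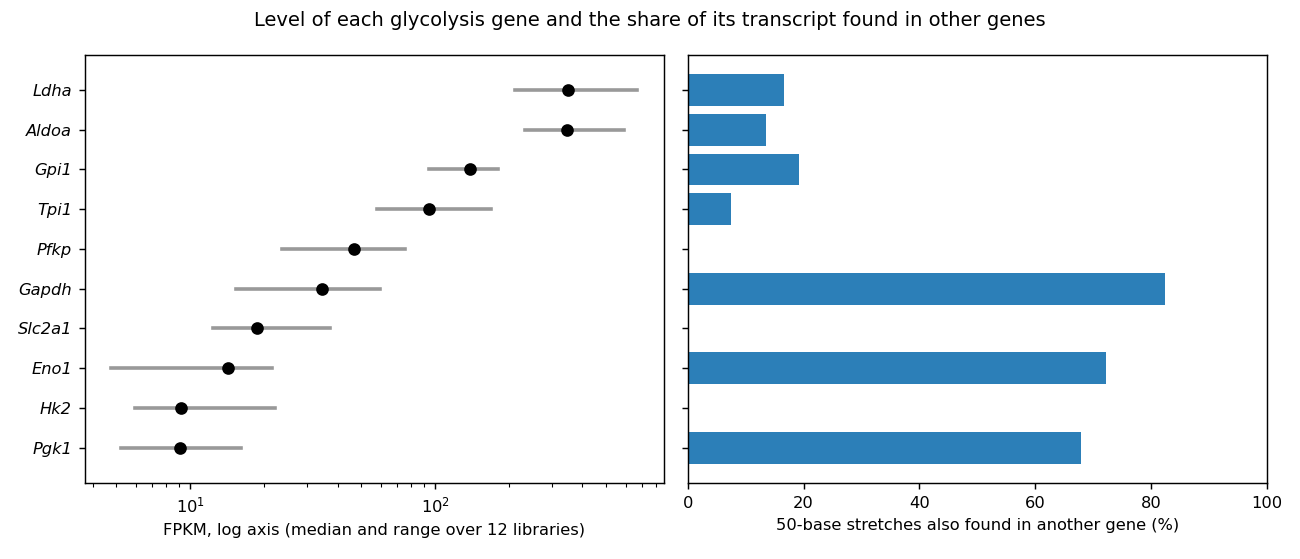
Left, median FPKM of each gene (point) and its range over 12 libraries (bar), on a log axis. Right, the share of 50-base stretches of its longest transcript that another gene also holds. Gapdh, Eno1 and Pgk1 have the 3 largest shares, from 68.0% to 82.5%.

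Glucose entry is served by Slc2a1, which encodes the transporter GLUT1, and its first enzymatic step by Hk2, hexokinase 2. Slc2a1 measured 31.2, 33.8 and 25.0 FPKM in combination libraries, 17.0, 15.8 and 12.5 in polyIC, 37.2, 36.9 and 17.9 in antiPDL1 and 16.6, 16.2 and 19.4 in control. The 3 combination libraries and antiPDL1 replicates 0 and 1 were high, and the other 7 libraries stayed below 20 FPKM. Slc2a1 rose 1.68-fold with the combination, a log2 difference of 0.75 ± 0.25 (SE, n = 3 each, limma adjusted p = 0.0470). The call is at the edge of the threshold: leaving out any 1 combination or polyIC library, or control replicate 0 or 1, ended it, with adjusted p from 0.0554 to 0.156, and testing all genes without the filter gave 0.0615. Hk2 measured 10.5, 7.36 and 6.77 FPKM in combination libraries, 6.76, 10.2 and 5.96 in polyIC, 8.16, 22.1 and 10.3 in antiPDL1 and 20.5, 14.1 and 6.62 in control. The controls spread over a range that holds all treated libraries except polyIC replicate 2 and antiPDL1 replicate 1, and the log2 difference of the combination was -0.58 ± 0.40 (adjusted p = 0.299). Slc2a1 and Hk2 thus had differences of opposite sign, also under every rescaling tried.

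Gpi1 encodes glucose-6-phosphate isomerase, and Pfkp the platelet-type subunit of phosphofructokinase, the main regulated step. Pfkp measured 75.4, 71.6 and 56.5 FPKM in combination libraries, 50.9, 42.2 and 37.2 in polyIC, 64.8, 69.0 and 31.1 in antiPDL1 and 23.7, 26.9 and 30.8 in control. Every treated library of all 3 groups lay above every control. With the combination Pfkp rose 2.44-fold, the largest difference among the 10 genes, at 1.29 ± 0.27 (adjusted p = 0.00709), and it was called in all 12 fits that left out 1 library. Gpi1 measured 180.0, 149 and 121 FPKM in combination libraries, 159, 148 and 134 in polyIC, 142, 150.0 and 94.9 in antiPDL1 and 96.9, 102 and 119.9 in control. Combination and control libraries did not overlap, but the gap was narrow and the difference of 0.48 ± 0.21 was not called (adjusted p = 0.103). Without antiPDL1 replicate 2, which enters this comparison only through the shared spread, it was (adjusted p = 0.0398).

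Aldoa, an aldolase, and Tpi1, triosephosphate isomerase, split the hexose and interconvert the products. Aldoa measured 488, 505 and 345 FPKM in combination libraries, 358, 307 and 234 in polyIC, 592, 588 and 255 in antiPDL1 and 294, 349.7 and 273 in control. The lowest combination library lay below the highest control, and the difference of 0.53 ± 0.32 was not called (adjusted p = 0.224). Tpi1 measured 134.9, 128 and 96.4 FPKM in combination libraries, 99.8, 83.0 and 71.5 in polyIC, 159, 169 and 68.8 in antiPDL1 and 77.5, 91.8 and 57.9 in control. All combination libraries were above all controls, by 0.66 ± 0.32 (adjusted p = 0.135), and the adjusted p was 0.0262 without antiPDL1 replicate 2.

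Gapdh, Pgk1 and Eno1 encode the enzymes that carry triose phosphate on towards pyruvate, glyceraldehyde-3-phosphate dehydrogenase, phosphoglycerate kinase 1 and enolase 1. Gapdh measured 52.7, 59.8 and 39.5 FPKM in combination libraries, 48.3, 27.9 and 27.2 in polyIC, 50.4, 53.3 and 26.1 in antiPDL1 and 27.8, 29.4 and 15.4 in control. It rose 2.09-fold with the combination (1.06 ± 0.34, adjusted p = 0.0345), all 3 libraries being above every control. That call was lost without combination replicate 0 (adjusted p = 0.0794) or 1 (0.123), without control replicate 0 (0.0625) or 2 (0.0974), and without the filter (0.0513). Eno1 measured 17.6, 17.4 and 14.9 FPKM in combination libraries, 16.0, 12.998 and 13.6 in polyIC, 18.0, 21.6 and 11.6 in antiPDL1 and 10.6, 8.46 and 4.75 in control. As for Pfkp, every treated library of all 3 groups was above every control, and Eno1 rose 2.05-fold with the combination (1.03 ± 0.26, adjusted p = 0.0155, and 0.0569 without combination replicate 1). Pgk1 measured 11.1, 14.0 and 11.7 FPKM in combination libraries, 9.76, 8.44 and 6.73 in polyIC, 16.2, 15.3 and 5.47 in antiPDL1 and 5.21, 6.56 and 6.89 in control. Its combination libraries were clear of the controls, with a difference of 0.88 ± 0.31 that missed the threshold at adjusted p = 0.0549. The adjusted p was 0.0429 without antiPDL1 replicate 0 and 0.00275 without antiPDL1 replicate 2.

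Ldha encodes the subunit of lactate dehydrogenase that favours lactate formation. It measured 533, 671 and 468 FPKM in combination libraries, 412, 286 and 271 in polyIC, 598, 492 and 227 in antiPDL1 and 213, 258 and 236 in control. The lowest combination library had more Ldha than any polyIC or control library. Ldha rose 2.34-fold with the combination (1.23 ± 0.32, adjusted p = 0.0174). Without combination replicate 1 the adjusted p was 0.0740, and without control replicate 0 it was 0.0641.

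**Figure D3:**
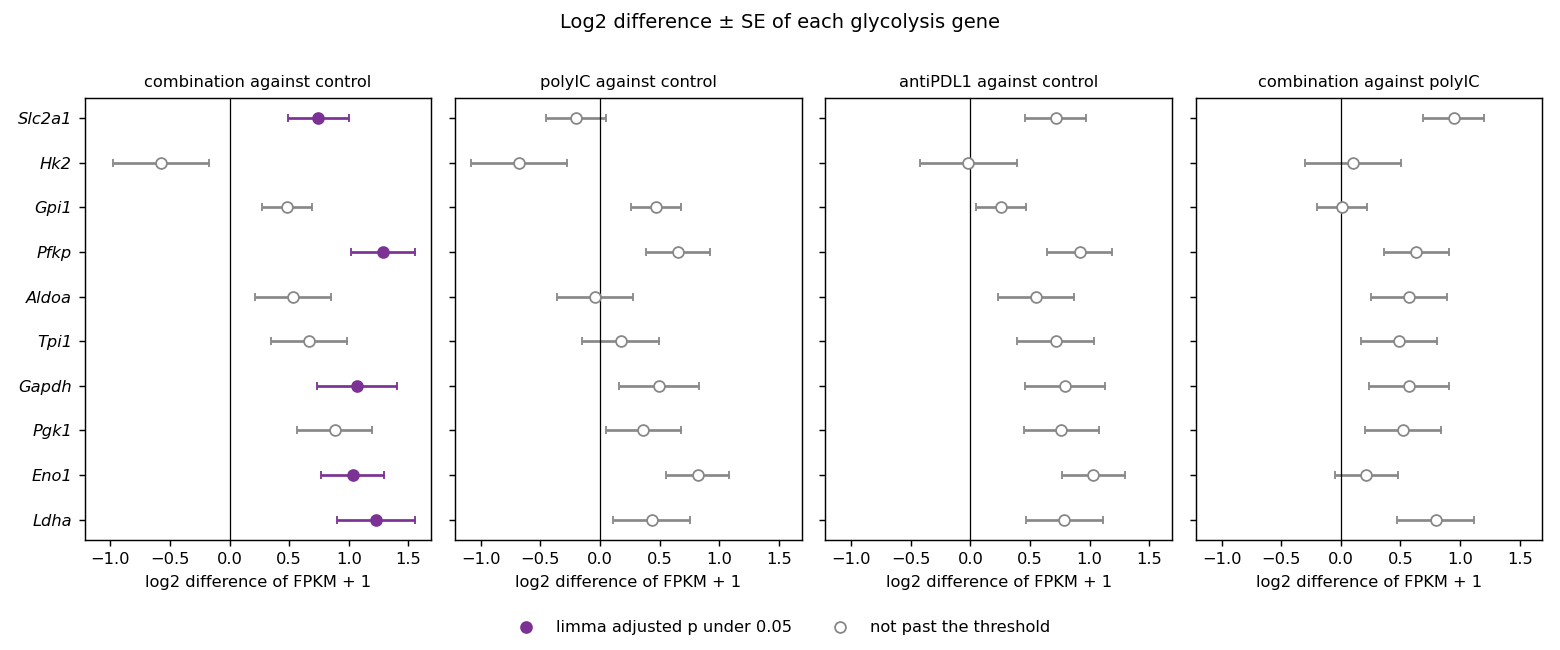
Log2 difference of each glycolysis gene with its SE, on the log2(FPKM + 1) scale, in each comparison. Filled points passed the test: 5 of 10 in combination against control, and 0 in the other 3 comparisons shown.

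With polyIC alone, none of the 10 genes passed the test against control. By limma 0 of 10 passed, where 2.47% of all genes rose and 3.64% changed in either direction, and 3 of 10 had an unadjusted p under 0.05, against 22.2% of all genes. The median log2 difference was 0.40, and it was 0.24 without polyIC replicate 0, against -0.01 over all genes. In 4 genes every polyIC library lay above every control, which was so for 16.2% of all genes: Eno1 at 0.82 ± 0.26 (adjusted p = 0.105), Pfkp at 0.65 ± 0.27 (0.188), Gpi1 at 0.47 ± 0.21 (0.214) and Ldha at 0.43 ± 0.32 (0.455). Gapdh stood at 0.49 ± 0.34 (adjusted p = 0.407) and Hk2 at -0.68 ± 0.40 (0.346). Slc2a1 stood at -0.20 ± 0.25 and Aldoa at -0.04 ± 0.32. Without antiPDL1 replicate 2, Pfkp alone passed (adjusted p = 0.0384), where 5.2% of all genes rose. Eno1 alone passed with quantile normalization, where 4.06% rose. Gpi1, Pfkp and Eno1 passed with array quality weights, where 13.5% rose, and when control replicate 2 and antiPDL1 replicate 2 were both left out, where 10.1% rose.

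With the PD-L1 antibody alone, glycolysis genes were high in replicates 0 and 1 and near control in replicate 2. Of the 10 genes, 10 stood above every control in antiPDL1 replicate 1, 9 in replicate 0 and 2 in replicate 2. The counts for single combination libraries were 9, 9 and 8, and for polyIC libraries 8, 5 and 4. The share of all genes above every control was not computed for single libraries, so these counts only describe the 10 genes. By limma 0 of 10 genes passed, where 0.208% of all genes changed and 0.0% rose, although 7 had an unadjusted p under 0.05, against 17.0% of all genes. The median log2 difference was 0.74, with Eno1 at 1.03 ± 0.26 (adjusted p = 0.168) and Pfkp at 0.92 ± 0.27 (0.194). Those were the 2 genes with no overlap between antiPDL1 and control, against 4.61% of all genes. Leaving out antiPDL1 replicate 2, 8 of 10 genes rose, where 11.9% of all genes did, and the median was 1.12. Without antiPDL1 replicate 0 the median was 0.52 and without replicate 1 it was 0.55, and in each case 0 of 10 genes passed, where 0.0% of all genes rose. The 8 genes called without replicate 2 were Slc2a1, Pfkp, Aldoa, Tpi1, Gapdh, Pgk1, Eno1 and Ldha, with adjusted p from 0.00296 to 0.0371. The same 8 rose when control replicate 2 was left out as well, where 14.4% of all genes did, and 6 rose with array quality weights, where 10.2% of all genes did. The 3 comparisons with control share the same control libraries.

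None of the 10 genes passed when the combination was set against either single treatment. Against polyIC, 0 of 10 passed, where 0.167% of all genes rose and 1.23% changed. All 10 differences were above 0, with a median of 0.55, although that of Gpi1 was 0.01 and fell below 0 under both rescalings. Of the 10, 3 had an unadjusted p under 0.05, against 13.5% of all genes. Slc2a1 was nearest the threshold: its combination libraries were all above its polyIC libraries by 0.95 ± 0.25 (adjusted p = 0.0981), and it passed without antiPDL1 replicate 2 (adjusted p = 0.0101), where 1.13% of all genes rose. With only these 2 groups in the fit Slc2a1 and Ldha passed, where 2.64% rose. With control replicate 2 and antiPDL1 replicate 2 left out Slc2a1, Pfkp and Ldha passed, where 2.11% rose, and with array quality weights 7 genes passed, where 15.6% rose. Slc2a1, Pfkp, Pgk1 and Ldha were the 4 genes with no overlap between combination and polyIC, against 13.3% of all genes. Against antiPDL1, 0 of 10 passed, where 0.125% of all genes changed, and 0 had an unadjusted p under 0.05, against 14.4% of all genes. The differences ran from -0.56 ± 0.40 for Hk2 to 0.44 ± 0.32 for Ldha. Their median was 0.07, and it ran from -0.27 without antiPDL1 replicate 2 to 0.26 without antiPDL1 replicate 1 over the fits that left out 1 library. The interaction contrast, which asks whether polyIC made a different change with and without the antibody, was passed by 0 of 10 genes, where 0.025% of all genes passed, and 0 had an unadjusted p under 0.05, against 2.44% of all genes. It ran from -0.82 ± 0.37 for Eno1 to 0.23 ± 0.36 for Slc2a1, with a median of -0.22 that ran from -0.50 without antiPDL1 replicate 2 to -0.01 without antiPDL1 replicate 1 over the same fits.

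In the treated groups, most of the 10 genes were lowest in the library of the same number, which was not so in control. Replicate 2 was the lowest library of its group for 9 of 10 genes in combination, in polyIC and in antiPDL1. Control replicate 2 was the lowest control for 5 of 10 genes and the highest for 4. The share of all genes that were lowest in replicate 2 was not computed. The summed FPKM of the 10 genes was 1535, 1656 and 1184 in combination libraries, 1178, 942 and 814 in polyIC, 1685, 1617 and 748 in antiPDL1 and 785, 903 and 770.4 in control. Replicate 2 thus had the lowest sum in each of the 4 groups. Median-of-ratios size factors, a measure of overall scaling, were 0.885 to 0.943 in these 4 libraries and 0.995 to 1.08 in the other 8. Rescaling by them kept the 5 calls of combination against control and added Pgk1. The share of each library's FPKM total taken by the 10 genes was 0.190% to 0.245% in combination, 0.143% to 0.174% in polyIC, 0.153% to 0.259% in antiPDL1 and 0.152% to 0.165% in control, so combination and control did not overlap on that scale either.

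Ratios of a gene to its paralog within a library do not depend on the scaling between libraries. Pfkp over Pfkl, the liver-type phosphofructokinase that immune cells also express, was 2.76, 3.36 and 3.85 in combination libraries, 3.86, 3.67 and 3.66 in polyIC, 2.25, 2.89 and 2.51 in antiPDL1 and 1.64, 1.93 and 1.94 in control. Every treated library, antiPDL1 replicate 2 included, was above every control. Ldha over Ldhb, the subunit that favours pyruvate, was 64.9, 64.1 and 46.9 in combination, 59.8, 29.2 and 40.6 in polyIC, 45.8, 49.9 and 30.5 in antiPDL1 and 27.6, 27.4 and 17.7 in control, again with no overlap between treated and control libraries. For Ldhb 27.0% of the 50-base stretches occur in another gene, so this ratio is less certain. Hk2 over Hk1, the hexokinase of most tissues, was 0.198, 0.183 and 0.219 in combination libraries, 0.185, 0.330 and 0.248 in polyIC, 0.277, 0.682 and 0.482 in antiPDL1 and 0.874, 0.639 and 0.263 in control. All combination libraries were below all controls. Slc2a1 over Slc2a3, the gene of the transporter GLUT3, was 1.34, 1.45 and 1.18 in combination, 0.636, 0.585 and 0.676 in polyIC, 2.82, 2.44 and 1.11 in antiPDL1 and 1.25, 1.17 and 0.926 in control. Here combination and control overlapped, and the polyIC libraries were below all others. The share of all gene pairs whose ratios do not overlap was not computed, so these ratios only describe the pairs shown.

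Relative to Ptprc, combination and control libraries overlapped for each of the 10 genes. Ptprc itself rose with the combination, by 0.90 ± 0.18 (adjusted p = 0.00535). This ratio was chosen after the values had been seen and is a description. Pfkp over Ptprc was 0.198, 0.149 and 0.116 in combination libraries, 0.134, 0.102 and 0.1002 in polyIC, 0.191, 0.211 and 0.116 in antiPDL1 and 0.115, 0.107 and 0.118 in control. Ldha over Ptprc was 1.40, 1.40 and 0.960 in combination, 1.09, 0.688 and 0.730 in polyIC, 1.76, 1.51 and 0.850 in antiPDL1 and 1.03, 1.03 and 0.904 in control. Per unit of Ptprc, 0 of 10 genes separated combination or antiPDL1 from control, and 3 of 10 were lower in every polyIC library than in any control. The share of all genes that separate on this scale was not computed. Ptprc was itself higher in polyIC libraries (371 to 416 FPKM) than in control (206 to 261), which lowers the ratio of any unchanged gene. Slc2a1 was 1 of these 3, at 0.0449, 0.0379 and 0.0335 in polyIC libraries and 0.0805, 0.0644 and 0.0745 in control.

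**Figure D4:**
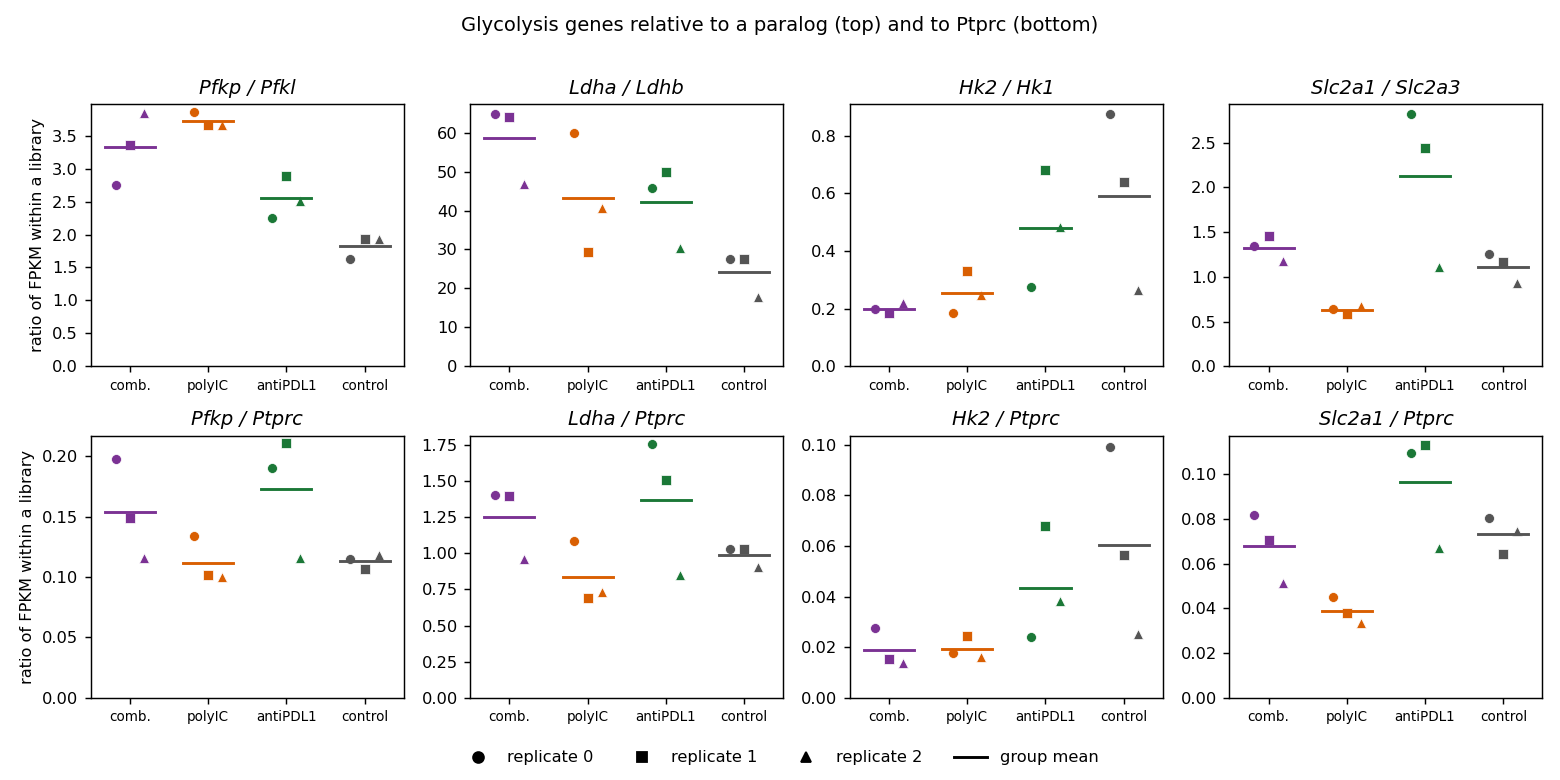
Ratios of FPKM within each library, with the groups in the order combination, polyIC, antiPDL1 and control. The top row sets a glycolysis gene against a paralog and the bottom row sets the same gene against Ptprc. Points are libraries and lines are group means. Pfkp over Pfkl and Ldha over Ldhb are higher in every treated library than in any control, whereas Pfkp and Ldha over Ptprc overlap between combination and control.

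Other genes of the pathway moved in both directions with the combination. Of 20 listed, 18 were tested, 4 rose and 2 fell, where 13.1% of all genes rose and 16.3% fell. The median log2 difference of the 18 was 0.41. Hk1 rose, at 53.3, 40.1 and 30.9 FPKM in combination libraries and 23.4, 22.1 and 25.2 in control (0.75 ± 0.23, adjusted p = 0.0289), the opposite sign to Hk2. Slc16a1, the monocarboxylate transporter MCT1, rose as well, at 10.2, 10.2 and 8.77 FPKM in combination libraries and 3.62, 3.97 and 8.01 in control (0.85 ± 0.23, adjusted p = 0.0189). The other 2 that rose, named after their values were seen, were Pkm, the pyruvate kinase of immune cells, with 34.4% of its 50-base stretches in other genes (1.12 ± 0.36, adjusted p = 0.0400), and Slc16a3, the lactate exporter MCT4 (1.25 ± 0.42, adjusted p = 0.0434). Adpgk, an ADP-dependent glucokinase, fell, at 17.1, 20.9 and 19.9 FPKM in combination libraries and 41.1, 39.1 and 32.7 in control (-0.93 ± 0.19, adjusted p = 0.00679). Pfkfb2, which makes the activator of phosphofructokinase, fell too (-0.51 ± 0.14, adjusted p = 0.0239). Adpgk was called in all 12 fits that left out 1 library. Slc16a1 was lost with only the 2 groups in the fit (adjusted p = 0.0523), without combination replicate 1 (0.0690) or control replicate 0 (0.0842) or 1 (0.0688). Hk1 was lost without combination replicate 0 (0.0940) or 1 (0.0818) or control replicate 0 (0.0840) or 1 (0.0808). Pfkfb2 was lost without any 1 combination library or without control replicate 0 or 1, with adjusted p from 0.0531 to 0.0985, and with quantile normalization (0.306). Pkm was called in 5 of 12 such fits and Slc16a3 in 3 of 12, with adjusted p up to 0.138 and 0.137, and leaving out any control library ended both calls. Against control, polyIC and antiPDL1 each gave 0 calls in this list, where 3.64% and 0.208% of all genes changed. An unadjusted p under 0.05 was found for 3 and 1 of 18, against 22.2% and 17.0% of all genes.

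The liver-type genes of glycolysis and gluconeogenesis went the other way. With the combination 0 of 12 rose and 7 fell, where 13.1% of all genes rose and 16.3% fell. The median of the 12 was -1.44. Pklr, the liver pyruvate kinase, measured 0.362, 0.500 and 0.519 FPKM in combination libraries and 9.12, 7.91 and 2.62 in control (-2.24 ± 0.40, adjusted p = 0.00397). Pck1, the gluconeogenic carboxykinase, fell by 2.38 ± 0.55 on the log2 scale (adjusted p = 0.0101) and Pcx, pyruvate carboxylase, by 1.65 ± 0.38 (0.00961). Hepatocyte markers fell in 9 of 12 in the same comparison, and their summed FPKM was 416 to 619 in combination libraries and 1647 to 4831 in control. PolyIC gave 0 calls among the 12 liver-type genes, where 3.64% of all genes changed. An unadjusted p under 0.05 was found for 0 of them, against 22.2% of all genes. Hepatocyte markers summed to 1910 to 2687 FPKM in polyIC libraries.

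Of all genes tested 13.1% rose and 16.3% fell with the combination. In the pentose phosphate pathway 1 of 7 genes rose with the combination and 0 fell: Rpe, ribulose-phosphate epimerase, at 37.7, 46.5 and 44.0 FPKM in combination libraries and 20.3, 22.0 and 28.9 in control (0.83 ± 0.18, adjusted p = 0.00729). Among pyruvate entry and TCA cycle genes 1 of 23 rose and 0 fell: Idh3a, a subunit of isocitrate dehydrogenase, at 59.1, 70.4 and 58.5 FPKM in combination libraries and 28.9, 31.4 and 30.1 in control (1.03 ± 0.22, adjusted p = 0.00741). Their medians were 0.22 and 0.28. In the TCA list 20 of 23 differences were above 0, and combination lay wholly above control for 9 of 23 genes, against 25.6% of all genes. In the HIF-1 list 1 of 19 tested genes rose and 2 fell, with a median of -0.08. Hif1a, the oxygen-regulated subunit of HIF-1, measured 65.6, 72.1 and 59.5 FPKM in combination libraries and 32.1, 33.0 and 38.4 in control (0.91 ± 0.16, adjusted p = 0.00382). The 2 that fell were Epas1, the gene of HIF-2α (-1.64 ± 0.42, adjusted p = 0.0149, and 0.0501 and 0.0534 without combination replicates 1 and 2), and P4ha2, a collagen prolyl hydroxylase subunit (-1.55 ± 0.32, adjusted p = 0.00644).

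Cell cycle genes rose in 13 of 15 with the combination and 0 fell, where 13.1% of all genes rose and 16.3% fell. The median of the 15 was 1.67. Kif11, a mitotic motor protein, measured 21.8, 30.2 and 24.4 FPKM in combination libraries and 4.94, 5.40 and 4.70 in control (2.13 ± 0.26, adjusted p = 0.00110). Ccna2, cyclin A2, rose by 2.10 ± 0.29 (adjusted p = 0.00169). The summed FPKM of the 15 genes was 621 to 796 in combination libraries, 408 to 615 in polyIC, 260 to 725 in antiPDL1 and 214 to 258 in control. With polyIC 6 of the 15 rose, where 2.47% of all genes did.

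Markers of cell types moved in the comparison in which glycolysis genes rose, where 13.1% of all genes rose and 16.3% fell. With the combination, T cell markers rose in 13 of 13 and CD8 and cytotoxic effector genes in 11 of 12, while B cell markers fell in 10 of 10, Kupffer cell markers in 8 of 9 and sinusoidal endothelial markers in 9 of 10. Monocyte markers rose in 5 of 10 and fell in 1, and neutrophil markers rose in 4 of 12. NK cell markers passed in 0 of 10, with 0 at an unadjusted p under 0.05, against 42.6% of all genes. Conventional and plasmacytoid dendritic cell markers fell in 6 of 10 and 6 of 8, and erythroid markers in 4 of 6. Summed T cell markers were 2390 to 3103 FPKM in combination libraries, 1409 to 1986 in polyIC, 751 to 1864 in antiPDL1 and 359.5 to 998 in control. Summed CD8 and cytotoxic genes were 13503 to 17449 in combination, 10577 to 13927 in polyIC, 2370.2 to 8810.2 in antiPDL1 and 865 to 2302 in control. Kupffer cell markers summed to 223 to 508 FPKM in combination, 1195 to 2221 in polyIC, 1027 to 6796 in antiPDL1 and 2003 to 9124 in control. With polyIC 10 of 12 CD8 and cytotoxic genes rose, where 2.47% of all genes did. The 10 glycolysis genes had 0 calls there, with a median log2 difference of 0.40 against -0.01 over all genes. Of the markers summed, those at 0 in any library were all in the erythroid list. Cd5l, a Kupffer cell gene left out as a failed estimate, was listed at 0 in all 3 control libraries. The part of these markers in the glycolysis result was not tested.

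**Figure D5:**
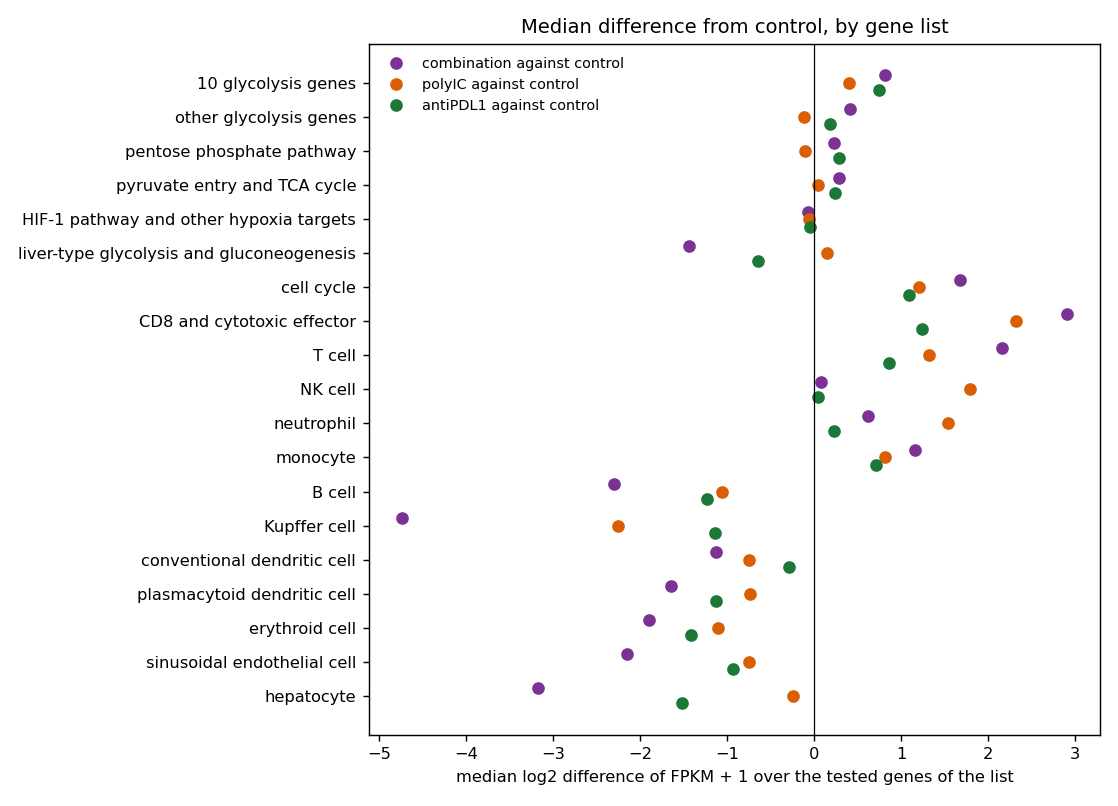
Median log2 difference of each gene list in each treated group against control, on the log2(FPKM + 1) scale. The 10 glycolysis genes have medians of 0.81 in combination, 0.40 in polyIC and 0.74 in antiPDL1, each against control, and liver-type genes lie at -1.44 in combination against control.

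The genes whose levels ran most like the 10 were sought over the 12 libraries, by Pearson's r between log2(FPKM + 1) and the mean z-score of the 10 genes, among 8188 genes. The r values are a description, since the libraries share groups, scaling and depth. Among the highest were those of Tuba1b, an alpha tubulin (0.987), Bak1, a pro-apoptotic BCL-2 family member (0.986), and Mcm3, a subunit of the replicative helicase (0.980). Mdh2, the mitochondrial malate dehydrogenase (0.978), Atp5b, a subunit of ATP synthase (0.978), Pkm (0.976) and Psmd2, a proteasome subunit (0.972), followed. Tuba1b ran from 41.5 to 62.3 FPKM in combination libraries, 29.8 to 44.0 in polyIC, 22.9 to 77.9 in antiPDL1 and 24.2 to 27.5 in control. Like 9 of the 10 glycolysis genes, Tuba1b had its lowest antiPDL1 value in replicate 2.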

How the data were processed

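Each gene has 1 deposited value in each library. The authors made these values with Cuffdiff on mm9, per the submitters' processing notes. The unit was taken to be FPKM from the deposited values themselves, which are decimals with library totals that differ. The Cuffdiff version, aligner, gene models and library scaling were not given in the sources used here. Libraries came from a stranded mRNA kit, per the labels' protocols. Depth is known only in relative terms, from ratios of low values in 45 of 66 library pairs, so the precision rests on the spread between replicates.

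A gene was tested if 3 or more of the 12 libraries reached 1 FPKM. A further 9 entries, with a whole group at 0 while every library of another group had at least 5 FPKM, were left out as failed estimates; none was a glycolysis gene. All 10 glycolysis genes passed the filter. limma 3.58.1 (R 4.3.3; limma-trend, two-sided) was fitted to log2(FPKM + 1) with group as the only term, after a check on simulated data. Python 3.11.15, pandas 2.3.3 and scipy 1.17.1 prepared the tables. Alternatives were a pseudocount of 0.1, no filter, 2 rescalings, a replicate block, array quality weights, only the groups compared, and each library left out. Named genes of each pathway list are up to 4 that passed, by smallest adjusted p in combination against control. The 8 genes most alike exclude predicted genes, small RNAs and receptor segments and have a mean of at least 5 FPKM. The members and lists were chosen with earlier results of these data known. A few results that these rules select are not reported here.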

Additional observations from a re-analysis of the deposited data

How the results depend on the processing

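For combination against control, 5 glycolysis genes were called. The count was 3 with no filter and 10 with array quality weights (9 higher and Hk2 lower). It was 1 to 8 when 1 library was left out. The count was 1 without combination replicate 1, 2 without control replicate 0 and 3 without combination replicate 0. Without antiPDL1 replicate 0 it was 6, and without antiPDL1 replicate 2 it was 8. It was 7 with control replicate 2 and antiPDL1 replicate 2 both left out. For polyIC against control, 0 became 1 with quantile normalization, 3 with array quality weights, 3 with control replicate 2 and antiPDL1 replicate 2 both left out, an alternative chosen after seeing the data, and 0 to 1 with 1 library left out. For antiPDL1 against control, 0 became 6 with array quality weights, 8 with both libraries left out and 0 to 8 with 1 left out. For combination against polyIC, 0 became 7 with array quality weights, 2 with only the groups compared, 3 with both libraries left out and 0 to 1 with 1 left out. For combination against antiPDL1 and for the interaction, the count was 0 in every alternative run. Same-numbered libraries deviated together at r from -0.28 to 0.31 over 18 pairs, with 4 above 0.1, against 3 of 36 pairs of different number. The labels do not say that a number is shared between groups, so the numbers were not taken as pairs. These r values cannot settle whether same-numbered libraries belong together. With a replicate block the counts were 7 for combination against control, the 5 genes plus Tpi1 and Pgk1, and 0 for the other comparisons. Some small differences, none of them called in any alternative, changed sign. With 1 library left out, Aldoa in polyIC against control ran from -0.18 to 0.13, Tpi1 from -0.0055 to 0.32 (-0.0055 with both libraries left out), Hk2 in antiPDL1 against control from -0.43 to 0.31 and Hk2 in combination against polyIC from -0.070 to 0.30. Gpi1 in combination against polyIC ran from -0.13 to 0.15, and was -0.14 with quantile normalization, -0.039 with median-of-ratios rescaling and -0.024 with array quality weights. The Slc2a1 interaction ran from -0.10 to 0.40, and was -0.023 with array quality weights and -0.18 with both libraries left out. Array quality weights gave combination replicate 1 a weight of 6.36 and antiPDL1 replicate 2 a weight of 0.209; the cause of the other shifts was not tested. Depth is known only in relative terms, so limits set by read number were not computed.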
